A study of Homo sapiens with 6 samples.

Results

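The genes described here encode proteins of DNA repair and of the DNA damage checkpoint, 38 of the 28495 genes in the table. They were taken by symbol through their Ensembl identifiers, and all 38 were listed. By role they fall into homologous recombination (10 genes), the Fanconi pathway with its deubiquitinase (10), dissolution of recombination intermediates (3), end resection (4), checkpoint kinases (4), mismatch repair (2), excision repair (3), and end joining or bypass (2). The study compared NCI-H1299 cells, an established human lung cancer line that the labels call lung adenocarcinoma, after silencing of complement factor B (sh-CFB) with control cells (sh-NC), in 3 libraries each. The titles name short hairpins while the column names are of the kind used for siRNA, so the form of the reagent is not settled, and no label gives a time after silencing, a clone, or separate cultures for the replicates. P-values therefore measure only the spread between these libraries, which may be technical.

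Double-strand breaks are sensed by the MRE11, RAD50 and NBN complex, which activates the kinase ATM, while single-stranded DNA activates ATR; these kinases act through CHEK2 and CHEK1 to hold the cell cycle. After resection of the ends, BRCA1, BRCA2 and PALB2 load the recombinase on DNA for strand exchange with the sister chromatid. Fanconi proteins unhook crosslinks, and mismatch and excision factors correct single bases. Transcripts of many of these genes are known to be highest in S phase.

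Values are FPKM, read fragments scaled to the length of the gene and to the library total, and fold changes are differences of log2(FPKM + 0.5), which understates changes of low genes. Library totals recovered from the table ran from 26230379 reads (sh-CFB replicate 1) to 40031649 reads (sh-NC replicate 2). CFB itself had 0, 0 and 2 reads in the sh-CFB libraries, against 1, 6 and 5 in sh-NC, too few to check the labels by the silenced gene. Of 5 lung adenocarcinoma markers, NKX2-1 reached 0.339 FPKM, NAPSA 0.328, SFTPB 0.0122 and SFTPC 0.0190, while KRT7 was at 1.21 to 1.79 in every library. The epithelial genes EPCAM, CDH1 and KRT19 reached 0.125, 0.00857 and 0.218, while KRT8 (31.8 to 55.2) and KRT18 (134.8 to 207.1) were abundant. The mesenchymal VIM (380.8 to 477.3) was abundant too. The mesenchymal CDH2 stood at only 1.43 to 2.85, FN1 at 1.05 to 2.57 and ZEB1 at 1.15 to 2.95. Of immune genes PTPRC, CD14 and CD68 reached 0.00832, 0.0758 and 0.0120, while the B cell gene CD79A was at 0.372 to 0.823. Of fibroblast genes DCN and PDGFRA reached 0.00938 and 0.0319, while the collagen gene COL1A1 was at 0.180 to 0.275. The endothelial PECAM1, VWF and CDH5 reached 0.0773, 0.0626 and 0.0251.

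Of the 30 repair and checkpoint genes whose FPKM averaged 0.5 or more over the 6 libraries, 7 fell in sh-CFB, 0 rose and 23 did not pass the test (limma, Benjamini-Hochberg adjustment over 12466 genes at 0.05). Over all tested genes 5.71% were called lower and 1.74% higher. The genes that fell were RAD51C, RAD54L and XRCC3 of homologous recombination, FANCA of the Fanconi core, RMI2 of the dissolution complex, and UNG and PARP1 of excision repair. At an unadjusted p under 0.05 there were 14 of 30 lower and 0 higher, where 18.6% and 7.28% of all tested genes were. The median of the 30 was -0.43, against -0.15 for the median tested gene, and 27 of 30 lay below 0, as did 67.7% of all tested genes. That median was -0.26 without sh-CFB replicate 1, without both replicate 1 libraries and with quantile normalization, and -0.25 with median-of-ratios factors. The median tested gene is not given for those settings and may move with them, so -0.15 is not their reference. Without sh-CFB replicate 2 no member passed (39 genes passed in the whole table), and without sh-NC replicate 2 none did either (20 in the whole table). The 7 genes then stood between -1.05 and -0.54 (limma adjusted p from 0.0561 to 0.161) and between -1.03 and -0.62 (limma adjusted p from 0.0748 to 0.173). Without sh-NC replicate 1 there were 3, without sh-CFB replicate 3 there were 4, and without both replicate 1 libraries 6. Over the 20 alternatives to the fit RMI2 and PARP1 passed in 16, RAD54L and UNG in 15, FANCA in 12, XRCC3 in 8 and RAD51C in 6. In bulk RNA fewer cells in a state and less RNA per cell cannot be told apart.

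**Figure D1:**
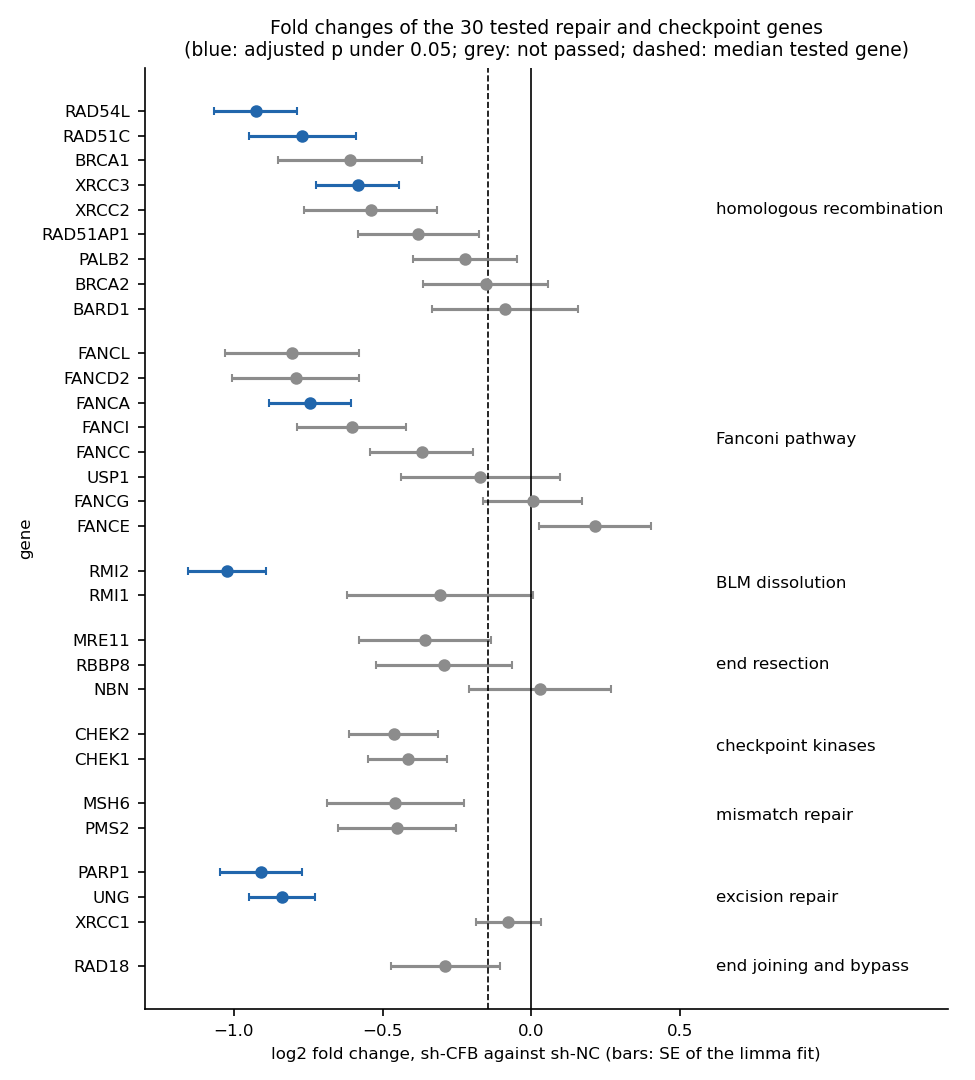
Log2 fold changes of the 30 tested genes (x axis) by gene and role (y axis), with points for the limma estimate and bars for its SE; blue points passed the test, grey points did not, and the dashed line is the median tested gene at -0.15. RMI2 lies lowest at -1.02 and FANCE highest at 0.21.

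The promoters of 6 of the 7 genes that fell are shown (RMI2 had no entry in the promoter table) because their transcripts share a called direction, as the 100 bases before the RefSeq start (GRCh38.p14), 5′ to 3′ in the direction of transcription. Capitals mark CCAAT on either strand (ATTGG on the other strand), the only one of the motifs searched that occurs in these stretches of the first 6. CHEK2, which did not pass, is added for its E2F-type match, the last capitals of its line.
RAD54L, chr1:46247588-46247687, plus strand: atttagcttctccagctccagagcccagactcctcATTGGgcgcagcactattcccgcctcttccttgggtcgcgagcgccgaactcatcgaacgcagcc
RAD51C, chr17:58692473-58692572, plus strand: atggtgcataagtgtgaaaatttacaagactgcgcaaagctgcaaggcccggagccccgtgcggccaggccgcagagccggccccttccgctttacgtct
XRCC3, chr14:103715452-103715551, minus strand: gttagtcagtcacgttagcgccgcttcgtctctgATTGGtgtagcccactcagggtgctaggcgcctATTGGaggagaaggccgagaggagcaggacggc
FANCA, chr16:89816648-89816747, minus strand: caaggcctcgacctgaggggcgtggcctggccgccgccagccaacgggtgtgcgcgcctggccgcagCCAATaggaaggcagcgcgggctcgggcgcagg
UNG, chr12:109097497-109097596, plus strand: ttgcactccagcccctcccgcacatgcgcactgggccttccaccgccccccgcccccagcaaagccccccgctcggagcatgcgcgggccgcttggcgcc
PARP1, chr1:226408094-226408193, minus strand: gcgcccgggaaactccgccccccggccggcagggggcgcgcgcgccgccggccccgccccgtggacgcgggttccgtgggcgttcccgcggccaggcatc
CHEK2, chr22:28741821-28741920, minus strand: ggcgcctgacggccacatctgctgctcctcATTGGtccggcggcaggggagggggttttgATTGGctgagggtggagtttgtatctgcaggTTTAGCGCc

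Windows of 250 bases before the start were found for 34 of the 38 genes and searched on both strands. CCAAT was in 16 of 34 (47.1%), against 33.0% of 27305 promoters of the same length and 35.2% of those of tested genes, and in 3 of 6 of the genes that fell (RAD54L, XRCC3 and FANCA) and 10 of 21 tested members that did not pass. The E2F-type sequence TTTNGCGC was in 2 of 34 (CHEK2 and FANCC, 5.9%), in 1.5% of all promoters and in 2.7% of those of tested genes. The CHR element, TTTGAA or TTCGAA, was in 5 of 34 (14.7%), in 14.6% of all promoters and in 8.8% of those of tested genes. The NRF1 palindrome was in 1 of 34 (2.9%), with 1.1% and 2.1% in those sets. None of these 3 motifs, in the forms searched, was in the windows of the 6 genes that fell. For E2F only TTTNGCGC was searched, so other forms of its site may be present. The NRF1 and E2F-type motifs share the letters GCGC. A match describes the letters only.

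In homologous recombination 3 of 9 tested genes fell, with a median of -0.54 over the 9. RAD54L, a motor protein that helps strand invasion (ENSG00000085999, chromosome 1 from 46247688 to 46278473 in GENCODE 29 on GRCh38), was at 1.90, 2.14 and 1.99 FPKM in sh-CFB replicates 1, 2 and 3 and stood at 4.70, 4.21 and 3.92 in sh-NC replicates 1, 2 and 3. The groups were well apart, with means of 2.01 ± 0.121 and 4.28 ± 0.396 (SD, n = 3 each) and a log2 change of -0.93 (SE 0.14, limma adjusted p = 0.0136). RAD51C, a paralog of the recombinase (ENSG00000108384, chromosome 17 from 58692573 to 58735611), was at 0.421, 0.780 and 0.712 FPKM in sh-CFB, against 1.45, 1.38 and 1.43 in sh-NC. Every sh-CFB library was below every sh-NC library, and the lowest value was that of sh-CFB replicate 1 (log2 change -0.77, SE 0.18, limma adjusted p = 0.0455). XRCC3, another recombinase paralog and the partner of RAD51C in a complex (ENSG00000126215, chromosome 14 from 103697609 to 103715504), was at 3.53, 3.01 and 3.16 FPKM in sh-CFB, against 4.78, 4.79 and 5.75 in sh-NC. Its change was -0.58 (SE 0.14, limma adjusted p = 0.0477), again with no overlap. It did not pass with quantile normalization, no filter or no intensity trend (limma adjusted p = 0.215, 0.0899 and 0.0547), nor with any single library left out. In the annotation 76.7% of its exon bases lie opposite exons of KLC1, and the strand setting of the counting is not known, so reads of the pair cannot be told apart; KLC1 stood at -0.20 (limma adjusted p = 0.577). For RAD54L 25.1% of exon bases lie opposite LRRC41, which rose by 0.47 (limma adjusted p = 0.0439).

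The other members of that group did not pass. BRCA1, the ubiquitin ligase and scaffold that promotes resection, was at 0.180, 0.322 and 0.557 FPKM in sh-CFB, against 1.13, 0.760 and 0.519 in sh-NC, so that the highest sh-CFB library overlapped the lowest sh-NC library (log2 difference -0.61, SE 0.24, limma adjusted p = 0.166). Its partner BARD1 stood at -0.09, BRCA2, which loads the recombinase, at -0.15, and PALB2, which joins BRCA1 to BRCA2, at -0.22, all with limma adjusted p of 0.465 or more. XRCC2, a further recombinase paralog, had a difference of -0.54 (limma adjusted p = 0.180), and RAD51AP1, which stimulates strand pairing, one of -0.38 (limma adjusted p = 0.285). RAD54B, a relative of RAD54L, lay below the filter at 0.1003, 0.163 and 0.142 FPKM in sh-CFB, against 0.443, 0.240 and 0.183 in sh-NC, or 14 to 29 and 32 to 93 reads. Those values did not overlap (two-sided exact permutation p = 0.1, the smallest that 3 against 3 allows). FSBP shares 59.1% of the exon bases of RAD54B on the same strand, so how reads were split between them is uncertain.

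The Fanconi pathway held both genes that were lower in every sh-CFB library and genes whose values overlapped between the groups. FANCA, a subunit of the core complex (ENSG00000187741, chromosome 16 from 89737549 to 89816657), was at 3.45, 4.18 and 3.47 FPKM in sh-CFB, against 7.09, 6.62 and 5.87 in sh-NC. Its means of 3.70 ± 0.414 and 6.53 ± 0.615 (SD, n = 3 each) gave a change of -0.74 (SE 0.14, limma adjusted p = 0.0233), and it was the only one of 8 tested genes to pass. FANCG, which binds FANCA in the same complex, was the most abundant of the 38 genes, at 47.1, 36.9 and 31.3 FPKM in sh-CFB, against 32.5, 39.2 and 42.3 in sh-NC. Those ranges overlapped in full, with a difference of 0.00 (SE 0.17, limma adjusted p = 0.991). In the annotation 23.6% of the exon bases of FANCA lie opposite ZNF276, which stood at -0.11 (limma adjusted p = 0.726). FANCE, the core subunit that contacts FANCD2, stood at 20.2, 13.9 and 13.3 FPKM in sh-CFB, against 11.2, 13.4 and 15.7 in sh-NC. It overlapped, and its highest value was that of sh-CFB replicate 1 (log2 difference 0.21, limma adjusted p = 0.522).

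FANCD2 and FANCI, which form the clamp that the core complex marks with ubiquitin, had lower values in every sh-CFB library without passing. FANCD2 was at 0.424, 0.677 and 0.652 FPKM in sh-CFB, against 1.84, 1.37 and 0.991 in sh-NC (log2 difference -0.79, SE 0.21, limma adjusted p = 0.0647). FANCI was at 0.756, 1.001 and 1.04 in sh-CFB, against 1.98, 1.74 and 1.33 in sh-NC (log2 difference -0.60, SE 0.18, limma adjusted p = 0.0883). Neither overlapped between groups, and sh-CFB replicate 1 and sh-NC replicate 1 held the extreme values of each. FANCL, the ubiquitin ligase of the core complex, had a difference of -0.80 with a wide spread in sh-CFB (0.917, 1.503 and 1.996 FPKM, against 2.89, 2.55 and 3.15; limma adjusted p = 0.0724), and 19.7% of its exon bases lie opposite exons of VRK2 (-0.08, limma adjusted p = 0.882) or AC007250.1. USP1, which takes ubiquitin off the clamp, was at -0.17 (limma adjusted p = 0.734) with overlapping values from 3.78 to 6.99 and from 4.83 to 8.56 FPKM. FANCC, a further core subunit, stood at -0.37 (limma adjusted p = 0.224). The helicase BRIP1 and the core subunit FANCB lay below the filter, at means of 0.171 ± 0.0880 and 0.337 ± 0.146 FPKM in sh-CFB, against 0.353 ± 0.113 and 0.415 ± 0.247 in sh-NC (SD, n = 3 each). BRIP1 did not overlap by a narrow margin (0.229 against 0.232), while FANCB did.

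RMI2 showed the lowest fold change of the 30 tested genes. It encodes a small subunit of the complex in which BLM and its partners take apart joined recombination intermediates (ENSG00000175643, chromosome 16 from 11249619 to 11381662). It stood at 2.36, 2.81 and 2.86 FPKM in sh-CFB, against 5.996, 5.89 and 5.96 in sh-NC, tight within each group. The means were 2.68 ± 0.274 and 5.95 ± 0.0554 (SD, n = 3 each), and the log2 scale gave -1.02 (SE 0.13, limma adjusted p = 0.0111). RMI1, the other small subunit, was at 1.15, 2.66 and 2.66 in sh-CFB, against 3.65, 2.68 and 1.86 in sh-NC, overlapping (log2 difference -0.31, limma adjusted p = 0.581). The helicase BLM itself had 0.165, 0.403 and 0.347 FPKM in sh-CFB, against 0.882, 0.717 and 0.447 in sh-NC. It lay below the filter and did not overlap (two-sided exact permutation p = 0.1, the smallest possible).

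Excision repair gave 2 genes that fell of 3. UNG, the glycosylase that cuts uracil out of DNA (ENSG00000076248, chromosome 12 from 109097574 to 109110992), was at 14.6, 16.7 and 16.2 FPKM in sh-CFB, against 27.3, 27.0 and 32.0 in sh-NC. Its means of 15.9 ± 1.14 and 28.8 ± 2.83 (SD, n = 3 each) gave a change of -0.84 (SE 0.11, limma adjusted p = 0.0115). PARP1, which senses strand breaks and builds poly(ADP-ribose) (ENSG00000143799, chromosome 1 from 226360691 to 226408079), was at 3.39, 4.31 and 4.56 FPKM in sh-CFB, against 8.35, 8.03 and 7.82 in sh-NC. That is 4.09 ± 0.618 against 8.06 ± 0.266 (SD, n = 3 each), a change of -0.91 (SE 0.14, limma adjusted p = 0.0137). XRCC1, the scaffold that PARP1 recruits, had 26.9, 27.6 and 29.1 FPKM in sh-CFB, against 26.0, 29.5 and 33.0 in sh-NC, overlapping (log2 difference -0.08, SE 0.11, limma adjusted p = 0.704).

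**Figure D2:**
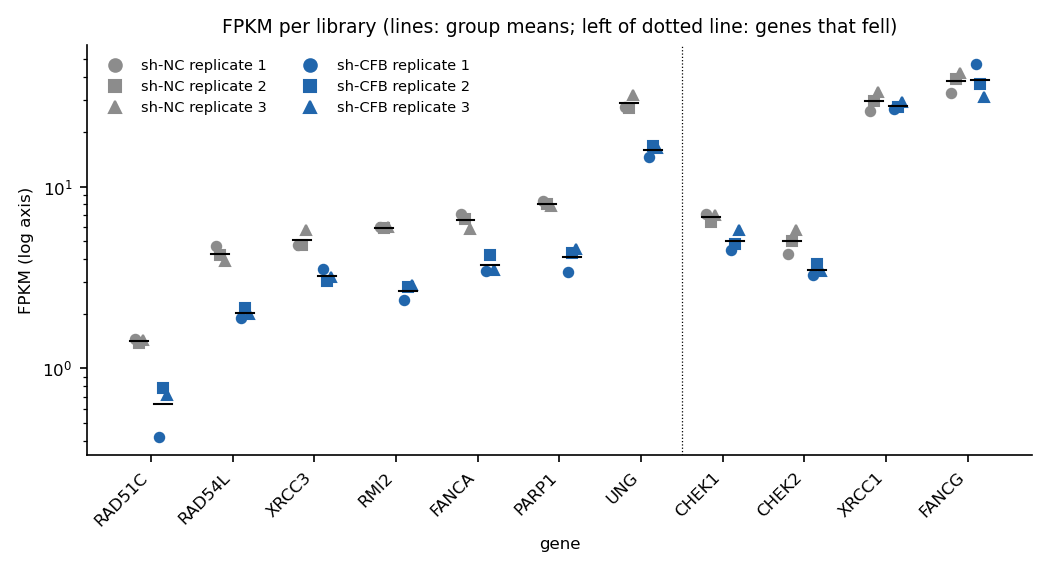
FPKM (log axis) of the 7 genes that fell and, right of the dotted line, of CHEK1, CHEK2, XRCC1 and FANCG, with a symbol for each replicate, grey for sh-NC, blue for sh-CFB, and black lines for group means. The groups separate for the 7 genes and for CHEK1 and CHEK2, and overlap for XRCC1 and FANCG.

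The checkpoint kinases did not pass. CHEK1, the effector kinase under ATR, was at 4.47, 4.81 and 5.74 FPKM in sh-CFB, against 7.07, 6.41 and 6.998 in sh-NC. CHEK2, the effector under ATM, was at 3.27, 3.73 and 3.45 in sh-CFB, against 4.27, 5.04 and 5.75 in sh-NC. Neither overlapped between groups, and the log2 differences were -0.42 (SE 0.13) and -0.46 (SE 0.15), with limma adjusted p of 0.1002 and 0.1004. ATM and ATR were below the filter, at 0.463 ± 0.169 and 0.267 ± 0.0496 FPKM in sh-CFB, against 0.488 ± 0.228 and 0.394 ± 0.1497 in sh-NC (SD, n = 3 each), and both overlapped. FPKM divides by the counted length, which was 39184 bases for ATM and 27234 for ATR where the longest annotated transcripts have 13147 and 8249, and ATM held 276 to 1065 reads per library. PARP1 was counted over 18399 bases, with a longest transcript of 3958.

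End resection, mismatch repair, end joining and bypass had 0 of 6 tested genes past the limma test. MRE11, the nuclease, stood at -0.36 (limma adjusted p = 0.357), RBBP8, which starts resection, at -0.29 (limma adjusted p = 0.464), and NBN, which carries ATM to breaks, at 0.03 (limma adjusted p = 0.952). RAD50 had only 6 to 49 reads per library, and 79.7% of its exon bases are shared on the same strand with another annotated gene, AC116366.3, so its level is uncertain. MSH6, which recognises mismatches, was at 2.18, 3.64 and 3.75 FPKM in sh-CFB, against 5.54, 4.504 and 3.55 in sh-NC, overlapping (log2 difference -0.46, limma adjusted p = 0.256). PMS2, the mismatch endonuclease subunit, stood at 0.587, 0.937 and 1.19 in sh-CFB, against 1.46, 1.42 and 1.30 in sh-NC without overlap (log2 difference -0.45, limma adjusted p = 0.202). PMS2, CHEK2, BRCA1 and FANCD2 are known to have closely related copies elsewhere in the genome, so their counts are uncertain. POLQ, the polymerase of microhomology end joining, was below the filter at 0.220, 0.424 and 0.315 FPKM in sh-CFB, against 0.872, 0.696 and 0.469 in sh-NC, with no overlap (two-sided exact permutation p = 0.1, the smallest possible). RAD18, the ubiquitin ligase that opens lesion bypass, stood at -0.29 (limma adjusted p = 0.364).

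Libraries of the same group differed over these genes. In sh-CFB, replicate 1 was the lowest of the 3 libraries for 35 of 38 genes, and in sh-NC, replicate 1 was the highest for 31 of 38. The same shares over all tested genes were not computed, so these counts do not set the members apart from other genes. Over all tested genes, which are not independent, each library's deviation from the mean of a gene was ranked against GC content. Spearman rho was 0.60 in sh-CFB replicate 1 and -0.55 in sh-NC replicate 1. In replicates 2 and 3 it was -0.097 and -0.16 for sh-CFB, and -0.25 and 0.23 for sh-NC. The 38 genes had a median GC content of 41.4% (from 36.0 to 63.8%), below the 49.3% of all tested genes. Among tested members with a GC content under 45% 1 of 18 passed, with a median SE of 0.22 and a median log2 difference of -0.37, and among those at 45% or more 6 of 12 passed, with 0.14 and -0.52. The shares of all tested genes called in these GC classes were not computed, so the split cannot be read as particular to the members. Across the 30 tested members fold change and GC content had a Pearson r of -0.08 and a Spearman rho of -0.23, from values that share the same 6 libraries.

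**Figure D3:**
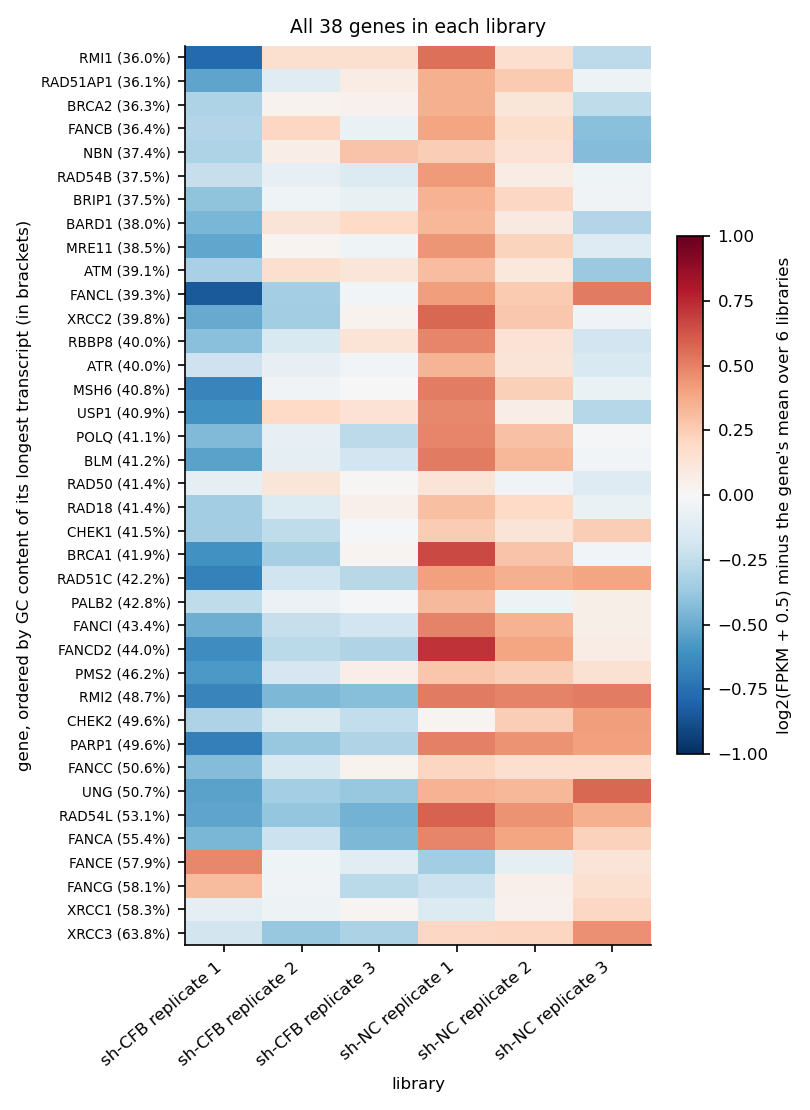
Deviation of log2(FPKM + 0.5) from each gene's mean over the 6 libraries (colour, from -1 to 1) for all 38 genes (rows, ordered by the GC content in brackets) in each library (columns). For most genes of low GC content the darkest blue is in sh-CFB replicate 1 and the darkest red in sh-NC replicate 1. RMI2, PARP1, UNG, RAD54L and FANCA are blue in all 3 sh-CFB libraries and red in all 3 sh-NC libraries. Among others, RAD51C, FANCD2 and FANCI, with a GC content of 42.2, 44 and 43.4%, are so too.

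After a correction of each library for GC content and length, 8 of 30 members were lower and 0 higher, where 6.07% of all tested genes were lower. Of the 7 genes that fell 6 were among the 8, and RAD51C was not (-0.52, limma adjusted p = 0.0572). FANCD2 (-0.52, limma adjusted p = 0.0279) and FANCL (-0.64, limma adjusted p = 0.0426) passed in addition. The median of the 30 moved to -0.18, with the median tested gene at 0.01. CHEK1 and CHEK2 moved to -0.18 and -0.19, and BRCA2, BARD1, PALB2 and USP1 to small values above 0. With median-of-ratios factors 3 members passed, RAD54L, PARP1 and RMI2. A voom fit on the recovered reads of genes with at least 50 reads on average, added after the values were seen, covered 35 members, of which 7 were lower, the same 7 genes, and 0 higher, where 4.19% of all genes in that fit were lower. It included ATM (-0.02), ATR (-0.51), BLM (-1.18), BRIP1 (-1.14) and POLQ (-1.08), whose limma adjusted p ran from 0.0937 to 0.984.

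**Figure D4:**
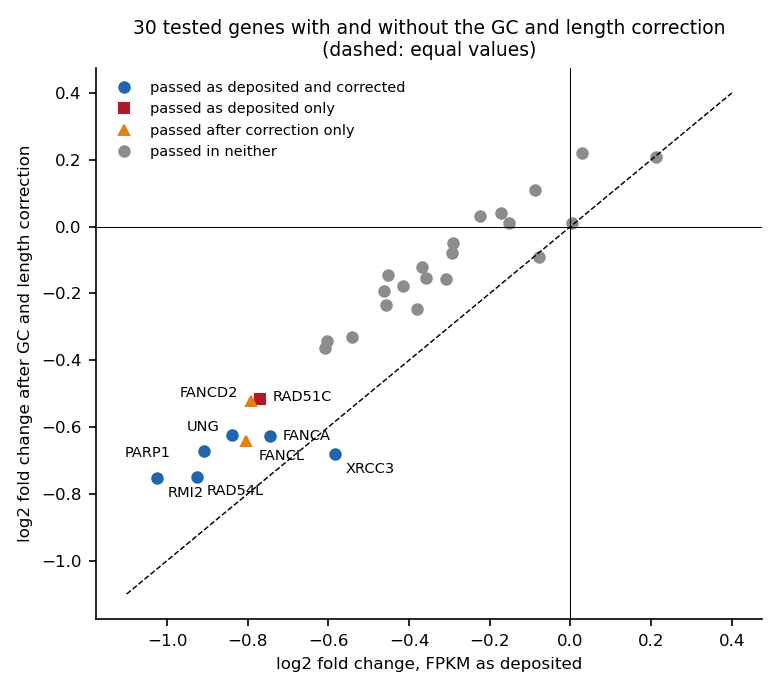
Log2 fold change of the 30 tested genes from FPKM as deposited (x axis) and after the GC and length correction (y axis), coloured by which fit they passed; the dashed line marks equal values. Most genes lie above the line, closer to 0 after the correction, and XRCC3 lies below it at -0.68.

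Without regard to the test, every sh-CFB library was below every sh-NC library for 14 of the 30 tested members, and 0 members showed the reverse. Over all tested genes these shares were 23.6% and 10.0%. The 14 were the 7 genes that fell and FANCC, FANCD2, FANCI, FANCL, CHEK1, CHEK2 and PMS2.

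A wider list of 142 other repair genes, of which 118 were tested, had 14 lower, 1 higher and 103 that did not pass, with a median of -0.29. Beside them, 5.71% of all tested genes were called lower and 1.74% higher, and the median tested gene was at -0.15. EXO1, an exonuclease of mismatch repair and resection, went from 2.10 ± 0.216 down to 0.721 ± 0.179 FPKM in sh-CFB (SD, n = 3 each), with a log2 value of -1.098 (SE 0.18, limma adjusted p = 0.0158). EME1, a subunit of a structure-specific nuclease, went from 4.31 ± 0.545 to 1.89 ± 0.234 (log2 change -1.01, limma adjusted p = 0.0145). POLL, a gap-filling polymerase of end joining, rose from 11.8 ± 0.797 to 18.7 ± 2.94 (log2 change 0.64, SE 0.13, limma adjusted p = 0.0321). The Ku subunits XRCC5 and XRCC6, which hold broken ends for joining and were named after their values were seen, fell by 0.89 and 0.76 on the log2 scale (limma adjusted p = 0.0135 and 0.0106), and TOP3A, the topoisomerase that works with BLM and RMI2, named likewise, fell by 0.64 (limma adjusted p = 0.0250).

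DNA replication genes, known for expression in S phase as many repair genes are, were counted beside the members. Of 43 tested replication genes 31 fell, 0 rose and 12 did not pass, with a median of -0.81, and their summed FPKM was 525.5 to 604.6 in sh-CFB, against 855.2 to 953.4 in sh-NC. FEN1, the flap endonuclease that also acts in excision repair, changed by -1.61 (limma adjusted p = 0.00613). In mitosis 8 of 29 fell (CCNB1, the mitotic cyclin, by 0.97 on the log2 scale, limma adjusted p = 0.0111), and in the E2F and RB list 6 of 19 fell (E2F1, an activator of S phase genes, by 0.98, limma adjusted p = 0.0106), with 0 rising in either. In the list of damage-induced genes 1 of 19 fell (SESN2, a stress sensor, -1.16, limma adjusted p = 0.0330) and 2 rose, GADD45B (0.70, limma adjusted p = 0.0117) and BBC3 (0.56, limma adjusted p = 0.0456), both named after their values were seen. For these lists too the shares over all tested genes were 5.71% lower and 1.74% higher, and 1 lower of 19 lies near the first. The summed FPKM of the 38 repair genes was 151.8, 154.0 and 151.6 in sh-CFB, against 191.4, 192.3 and 198.2 in sh-NC. The part of the cell cycle in the lower repair transcripts was not tested.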

How the data were processed

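The authors deposited FPKM per gene with 1 column per library; read processing, per the submitters' processing notes, used featureCounts 2.0.1, STAR 2.7.3a, FastQC 0.11.9 and Trimmomatic 0.39, on GRCh38. Not given in the sources used here: strand setting, annotation release and FPKM formula. The deposited FPKM values were whole multiples of 1 read, within 0.02 for 99.96% of genes, which gave reads and library totals. The annotated length was used for 50.9% of genes. For most others, such as ATM, ATR and PARP1, the counted length was solved so that reads were whole. The share of 99.96% is therefore partly built in. Genes with 2 reads outnumbered those with 1 in every library (1640 against 908 in sh-CFB replicate 1), as when both mates of a pair are counted. In a gene of 2000 bases 3 reads are an FPKM of 0.0375 to 0.0572, a floor that covers counting error alone. The model used log2(FPKM + 0.5) of genes averaging 0.5 FPKM or more over the 6 libraries, in limma 3.58.1 in R 4.3.3 (intensity trend, Benjamini-Hochberg over all tested genes). The GC and length correction subtracted from each library a natural spline fit of its deviations (5 and 3 degrees of freedom). The procedure was tested on simulated data with independent noise per gene. Those data held no trend with GC content, unlike these libraries, so the test does not cover such trends. Other steps ran in Python 3.11.15 (scipy 1.17.1, pandas 2.3.3, numpy 2.4.6; plots in matplotlib 3.10.9).

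Coordinates, exon overlap and GC content (longest transcript) came from GENCODE 29, and promoters from RefSeq. Members below the filter were given per library with exact permutation tests. All 38 members could be named; of the other repair genes the 3 highest and 3 lowest that passed and averaged 1 FPKM or more in the higher group, of which 1 rose and 2 of the lowest are described; and of each further list (replication, mitosis, E2F and RB, damage response) the gene with the largest change. The members and lists were chosen with earlier results of these data known. Alternatives were other pseudocounts, filters, scalings, voom, a replicate block and leaving out libraries. A count table that the labels name was not analysed here. A withheld item is not reported here.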

Additional observations from a re-analysis of the deposited data

How the results depend on the processing

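Members lower in sh-CFB numbered 7, and from 6 to 8 with pseudocounts of 0.1 and 1, a filter of 1, equal totals, quantile normalization, the GC and length correction, no intensity trend, voom, and without both replicate 1 libraries, though not always the same genes. They numbered 4 with no filter and 3 with median-of-ratios factors, where all called genes numbered 324 and 133 in place of 929. Leaving out 1 library gave 0 to 5 members, 0 to 10 other repair genes lower, 0 to 1 higher, and 20 to 540 called genes. Other repair genes lower numbered 6 with no filter, 2 with median-of-ratios factors and 9 without a trend, where 531 genes were called. Other repair genes higher numbered 0 in those 3 settings and 2 with quantile normalization, the GC and length correction, and without both replicate 1 libraries. Members higher numbered 0 in every setting run. The cause of these shifts was not tested.

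The labels do not say whether same-numbered libraries were paired. Their correlations of deviations were -0.539, 0.0682 and -0.448 for replicates 1, 2 and 3. These values cannot decide on pairing, because the replicate 1 libraries deviated with GC content in opposite directions. The replicate 3 libraries did so too, more weakly (Spearman rho of -0.16 in sh-CFB and 0.23 in sh-NC). The replicate block called 0 genes, members and other repair genes included, with or without the GC and length correction. That fit had few degrees of freedom left, so its count cannot decide on pairing either.

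No gene that fell changed sign. Members that did were uncalled in all settings. With the GC and length correction, with or without the replicate block, BRCA2 stood at 0.011, BARD1 at 0.11, PALB2 at 0.032 and USP1 at 0.041. With median-of-ratios factors BARD1, USP1 and XRCC1 stood at 0.013, 0.019 and 0.126, and with quantile normalization at 0.017, 0.006 and 0.036. With equal totals FANCG and NBN stood at -0.054 and -0.020, and with either voom fit FANCG at -0.005. Without both replicate 1 libraries BRCA2, BARD1, FANCE, FANCG, USP1, RMI1 and RBBP8 stood at 0.102, 0.262, -0.093, -0.258, 0.283, 0.206 and 0.016. Over the 6 fits that left out 1 library, BARD1 ranged from -0.256 to 0.118, FANCG from -0.152 to 0.140, USP1 from -0.359 to 0.088, RMI1 from -0.514 to 0.006, NBN from -0.178 to 0.193 and XRCC1 from -0.163 to 0.005.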
